A study of Homo sapiens with 3 samples.

Results

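Gene expression after transfection of siH19-1 was set directly against that after siH19-2, the 2 siRNAs that the study aimed at the long noncoding RNA H19. Of the series' 3 arrays, 2 enter the comparison, and the array of the control siRNA serves as a reference level. The cells were DLD1, a human colon cancer cell line, so every array describes 1 cell line and no patient. Per the labels' protocols, each siRNA was delivered at 50 nM with Lipofectamine RNAiMAX, and 500 ng of total RNA was labelled for a whole-transcript array. The protocol gives 48 h of transfection and the series' design text 24 h. The groups are thus control siRNA, siH19-1 and siH19-2, with 1 array each, and all cells received an siRNA and the transfection reagent. There were no replicates, so no difference below carries an error or a test.

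H19 is an imprinted noncoding RNA, normally read from the maternal chromosome, and its first exon holds the precursor of miR-675. An siRNA guides the Argonaute protein to RNAs that pair with it. Full pairing leads to cleavage of the target, and pairing of the guide's seed alone can lower other RNAs. Since 2 siRNAs against 1 transcript can differ in their seeds, studies of this kind commonly use more than 1. The sequences of the siRNAs were not analysed here.

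Genes were compared when their brightest probe set had a mean log2 signal of at least 5 over the 3 arrays, which left 9630 of 22465 genes. A gene is called higher or lower with siH19-1 when the deposited signals of the 2 siRNA arrays were at least 1.5-fold apart, and all values below are log2 signals or differences of log2 signals, siH19-1 minus siH19-2, unless stated. Of the compared genes, 76 had a value above 16, which exceeds the ceiling of a 16-bit scanner, so a fold is a fold on the deposited scale. The median over all probe sets was 3.47 on the control array, 3.53 with siH19-1 and 3.57 with siH19-2. Among epithelial markers 6 of 11 measured genes were compared, with the keratin KRT8 brightest at a mean of 15.45. Mesenchymal and fibroblast markers had 0 of 12 past the minimum, and leukocyte and endothelial markers 1 of 10 (CD68, at 5.93). Summed on the linear scale and returned to log2, the epithelial markers stood at 16.80 on the control array, 16.91 with siH19-1 and 16.40 with siH19-2. The mesenchymal sum lay between 7.15 and 7.19 and the leukocyte and endothelial sum between 7.02 and 7.10, and the part of either in the results was not tested.

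The probe set that covers the targeted RNA was under 1.5-fold apart. H19 and MIR675 share 1 probe set (TC11001273.hg.1), which read 7.88 on the control array, 7.74 with siH19-1 and 7.37 with siH19-2. It was 0.37 higher with siH19-1 than with siH19-2, and 1173 compared genes had a difference at least as high. The value cannot be given to H19 alone.

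With siH19-1, 549 genes were higher than with siH19-2 (5.7% of those compared) and 242 were lower (2.51%). Higher genes therefore made up 69.4% of the 791 genes apart. The median over all 9630 genes was 0.00, with quartiles of -0.15 and 0.19 and an SD of 0.364 across genes. At 2-fold, 171 genes were higher and 42 lower, and at 4-fold 20 and 5. The surplus of higher genes lay among brighter probe sets. At a mean signal from 5 to 6, 1.03% of genes were higher and 1.60% lower, whereas from 10 to 12 the shares were 11.7% and 2.87%. The spread of the differences widened over the same range, from an SD of 0.233 to one of 0.493.

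**Figure D1:**
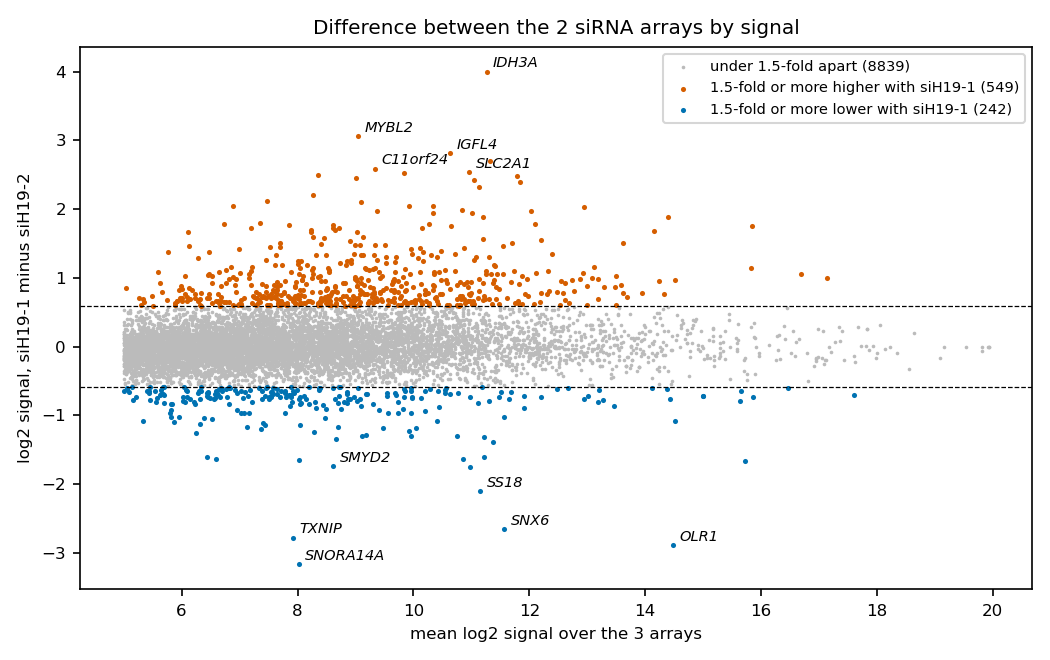
Each point is 1 compared gene, placed by its mean log2 signal over the 3 arrays and by its log2 difference, siH19-1 minus siH19-2, with dashed lines at 1.5-fold. The 549 higher genes outnumber the 242 lower genes, and the higher ones spread furthest at mean signals between 8 and 12.

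The genes furthest apart were mostly those at which siH19-2 left the level of the other arrays. IDH3A, the catalytic subunit of the NAD-dependent isocitrate dehydrogenase of the citric acid cycle, read 12.70 on the control array, 12.55 with siH19-1 and 8.55 with siH19-2. The difference of 4.0 corresponds to 16-fold. Only the siH19-2 array was low. MYBL2, a transcription factor of proliferating cells, read 10.42, 9.90 and 6.84 in the same order, a difference of 3.06. IGFL4, an insulin growth factor-like gene, read 11.25, 11.73 and 8.91, a difference of 2.82. SLC2A1, the glucose transporter GLUT1, read 12.07, 11.68 and 9.14, a difference of 2.54. In each of these genes the control value lay closer to siH19-1.

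Further genes of this kind had roles in mitochondria, cell adhesion and protein or nucleotide synthesis. NDUFAB1, the mitochondrial acyl carrier protein, read 11.16, 10.42 and 7.90, and CS, the citrate synthase, 11.95, 11.79 and 9.37. DSG2, a cadherin of desmosomes, read 12.74, 12.56 and 10.08. PPAT, which opens purine synthesis, read 11.01, 11.01 and 8.97, and RARS1, the arginyl-tRNA synthetase, 13.60, 13.64 and 11.61. On each of these the siH19-2 array was the lowest. C11orf24 (2.59), FAM32A (2.49), FAM111B (2.32), TNS4 (2.21), UHMK1 (2.10), ERVMER34-1 and CDIN1 (2.05 each) and YIPF5 (1.99) complete the upper end together with MYD88, LRRC59 and CARNMT1, described below.

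CARNMT1, a carnosine N-methyltransferase, differed from the rest of the upper end. It read 8.17 on the control array, 10.66 with siH19-1 and 8.21 with siH19-2, so the siH19-1 array was high and the others were nearly equal.

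At the lower end, OLR1, a scavenger receptor for oxidised LDL, read 15.86 on the control array, 12.34 with siH19-1 and 15.23 with siH19-2, a difference of -2.89. SNX6, a sorting nexin of retromer transport, read 12.50, 9.78 and 12.43, a difference of -2.65. SS18, part of the nucleosome-remodelling complex BAF, read 12.14, 9.61 and 11.71, a difference of -2.10. For these genes the lowest array was siH19-1. The siH19-2 array also lay below control, by a difference of -0.63 in OLR1 and -0.43 in SS18. The methyltransferase SMYD2 (9.41, 7.36 and 9.10) and MTA2, a subunit of the NuRD deacetylase complex (11.94, 10.06 and 11.66), had the same shape.

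In the arrestin-domain genes TXNIP and ARRDC3, siH19-2 was the high array, and in TXNIP siH19-1 also lay below control. TXNIP, which binds thioredoxin and promotes uptake of glucose transporters from the cell surface, read 7.60 on the control array, 6.70 with siH19-1 and 9.48 with siH19-2, a difference of -2.78. Its relative ARRDC3 read 5.98, 6.09 and 7.73, a difference of -1.64. TXNIP and SLC2A1 thus lay in opposite directions on the siH19-2 array. The remaining genes of the lower end ranged from -1.39 for MSMO1 to -1.17 for AMACR. They include SPC24 (-1.26), of the NDC80 kinetochore complex, PTBP2 (-1.19), a splicing regulator, and NECAP1 (-1.18), an endocytosis adaptor.

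**Figure D2:**
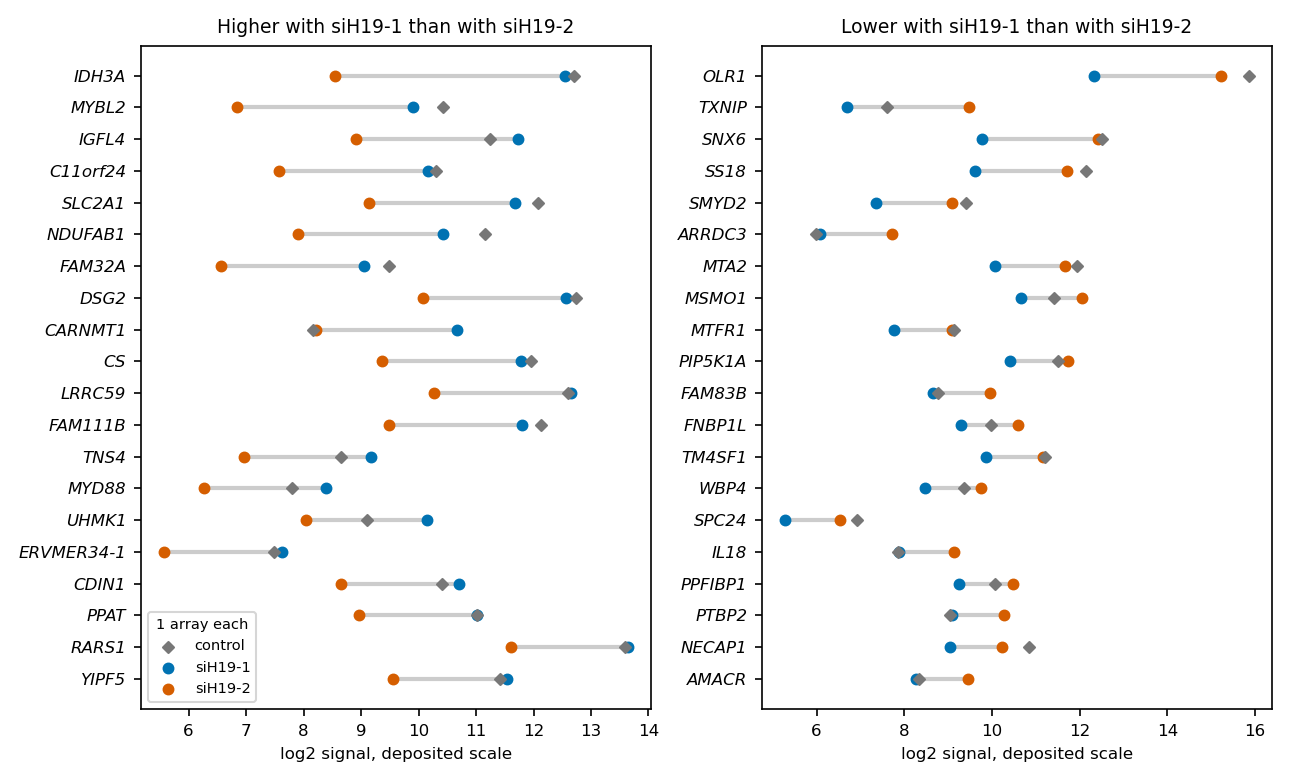
Log2 signal on the deposited scale for the 20 protein-coding genes highest and the 20 lowest in siH19-1 minus siH19-2, with 1 point per array (grey diamond, control; blue, siH19-1; orange, siH19-2). Among the higher genes the control diamond sits near or beyond the siH19-1 point for most, and CARNMT1, where it lies on the siH19-2 point, is an exception.

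The place of the control array was counted for all genes apart, calling a control value near a siRNA array when it lay within 0.2 of that array and not of the other. Of the 549 higher genes, 269 (49.0%) had the control near siH19-1 and 27 (4.92%) near siH19-2. In 104 it lay between, and in 149 outside both, with both siRNA arrays below control in 138 of these. The median of the higher genes was -0.02 for siH19-1 minus control and -0.89 for siH19-2 minus control, and siH19-2 was the farther from control in 477 (86.9%). The 242 lower genes were more evenly divided. Their control value was near siH19-1 in 80 (33.1%), near siH19-2 in 50 (20.7%), between in 67 and outside both in 45. Both siRNA differences share the 1 control array, so an error of that array moves both.

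**Figure D3:**
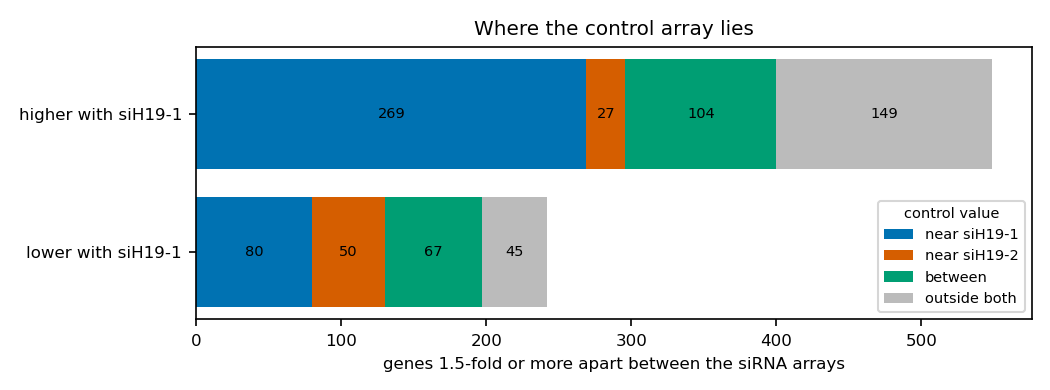
Number of genes higher and lower with siH19-1, divided by where the control value lies (near siH19-1, near siH19-2, between, or outside both). The control is near siH19-1 in 269 of 549 higher genes and in 80 of 242 lower genes.

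In the 27 higher and 50 lower genes with control near siH19-2, it was siH19-1 that stood apart. Higher ones included EIF5A2, a paralogue of the translation factor eIF5A, which was 1.48 higher with siH19-1 and read 8.44 on the control array and 8.52 with siH19-2. SETD7, a lysine methyltransferase, read 8.49, 9.76 and 8.50. CLOCK, a core circadian transcription factor, read 10.65, 11.43 and 10.52, and ERRFI1, an inhibitor of the EGF receptor, 11.89, 12.75 and 11.97. Lower ones included SMARCB1, like SS18 a BAF subunit (8.53, 7.23 and 8.37), PDIA3, a disulfide isomerase of the endoplasmic reticulum (14.87, 13.79 and 14.87), and LIG1, the replicative DNA ligase (7.31, 6.33 and 7.25). Conversely, IL18, a cytokine of the IL-1 family, was set apart by siH19-2 (7.85, 7.89 and 9.13), as were ITPR2, a calcium channel (10.06, 10.02 and 11.11), and SEMA3C, a semaphorin (5.90, 5.96 and 7.08).

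Gene lists by function were then described by their counts, to be read beside the 5.7% higher, 2.51% lower and median of 0.00 over all compared genes, and none was tested. Over all compared genes, 10.1% were higher at mean signals from 9 to 10, 11.7% from 10 to 12 and 7.87% from 12 to 20. Lists of bright genes are to be read beside these shares as well. Carbon and lipid metabolism held differences in both directions. Among 19 sterol synthesis genes compared, 0 were higher and 5 (26.3%) lower with siH19-1, with a median of -0.29, and 18 of 19 lay below 0. MSMO1, the sterol C4-methyl oxidase, read 11.42 on the control array, 10.66 with siH19-1 and 12.05 with siH19-2, and SQLE, the squalene epoxidase, 10.20, 9.73 and 10.67. For both, control lay between the siRNA arrays. Over the list, however, the median was -0.45 for siH19-1 minus control and 0.05 for siH19-2 minus control. In 2 of the 5 lower genes control lay near siH19-2. HSD17B7 was at -0.73, and ACAT2 and SREBF2, which encodes the transcription factor of the pathway, at -0.62 each. After median centring 3 remained lower, without ACAT2 and SREBF2, and the list's median stayed below 0 under every scaling tried.

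Fatty acid synthesis lay the other way, with 3 of 12 genes higher (25%), 0 lower and a median of 0.19. The median was 0.325 at a minimum signal of 7 and 0.15 with no minimum. The list's median signal on the control array was 8.975, and 7.8% of all compared genes were higher from 8 to 9. The elongase ELOVL6 was at 1.16 (7.46, 7.67 and 6.51), the desaturase SCD at 0.78 (11.26, 11.24 and 10.46) and ACACA, the acetyl-CoA carboxylase, at 0.67. On all of them siH19-2 was the low array. In the TCA cycle 3 of 21 genes were higher and 1 lower, although the median was -0.10. The higher ones were IDH3A, CS and DLAT (1.31), a subunit of pyruvate dehydrogenase. The lower one was IDH1 (-0.71), the cytosolic NADP-dependent enzyme. In glycolysis and glucose uptake only SLC2A1, of 20 genes, passed 1.5-fold, and the hexokinase HK2 was at 0.30.

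Ribosome biogenesis had 15 of 60 genes higher (25%), 0 lower, and a median of 0.26. NIP7, a factor of large-subunit assembly, read 11.78 on the control array, 11.85 with siH19-1 and 9.97 with siH19-2. NOP58, a core protein of C/D small nucleolar RNPs, read 13.96, 14.18 and 12.68, and RRN3, an initiation factor of RNA polymerase I, 9.57, 9.57 and 8.24. All were low on the siH19-2 array only, and in 10 of the 15 the control was near siH19-1. Across the scalings tried the median ran from 0.21 to 0.30. The list's median signal on the control array was 10.32, a range of signal in which 11.7% of all genes were higher. Cytosolic ribosomal proteins had 0 of 52 genes apart, a median of 0.00 and a range from -0.26 to 0.38. The translation initiation family, chosen by symbol, had 6 of 49 higher (12.2%), 0 lower and a median of 0.16. Its median signal on the control array was 10.41, within the same range of signal. The 6 include the pseudogene EIF2S2P3 (1.46), whose probes may read EIF2S2 itself, so that 1 transcript may count more than once. The family was led by EIF2S2 at 1.97 (12.77, 12.64 and 10.67), the beta subunit of eIF2. Of 32 aminoacyl-tRNA synthetases, 2 were higher and 1 lower with a median of -0.09, so most of the family lay nearer to 0 than RARS1. QARS1, the lower one, was at -0.61, and at -0.57 after median centring.

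Of 56 genes of G1/S and DNA replication, 10 were higher and 1 lower, with a median of 0.16. After quantile normalization 8 were higher and the median was 0.097, and after median centring 12 were higher. MCM3, a subunit of the replicative helicase, read 11.73, 11.62 and 9.67, a difference of 1.95. E2F7, a repressor of the E2F family, was at 1.24 (8.71, 8.35 and 7.11), and CHAF1B, a histone chaperone of replication, at 1.14 (9.86, 9.63 and 8.49). LIG1 was the lower one (-0.92). Mitosis genes had 3 of 51 higher, 0 lower and a median of 0.11, with MYBL2 first and the kinesin KIF20A at 0.76. Of 21 p53 targets 0 were apart and the median was 0.00.

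Signalling genes showed the following counts. Of 22 NF-kB and chemokine genes, 6 were higher and 2 lower (IL18 and TLR3, a receptor of double-stranded RNA, at -0.66). MYD88, the adaptor of Toll-like and IL-1 receptors, read 7.79 on the control array, 8.39 with siH19-1 and 6.27 with siH19-2, a difference of 2.12. The neutrophil chemoattractant CXCL5 read 15.81, 16.74 and 14.98, with its siH19-1 value above 16, and CCL20 8.46, 9.71 and 7.98. For all 3 the siH19-1 array was the highest and siH19-2 the lowest. CXCL8 was at 1.15 and CXCL1 at 1.10, in both of which control lay near siH19-1.

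Among 26 genes of the ERK response, 4 were higher and 0 lower, and 23 lay above 0. The median was 0.215, and it was 0.375 at a minimum signal of 7 and 0.14 with no minimum. MYC read 9.59, 9.62 and 8.51, and IER3 10.09, 10.23 and 9.30, both with siH19-2 low. Of growth factor receptors and ligands, 3 of 24 were higher, among them EGFR at 0.99 (7.21, 7.28 and 6.29) and MET at 0.96 (9.91, 9.99 and 9.03). In the TGF-beta, BMP and YAP list 6 of 22 were higher and 1 lower, with ID1, an inhibitor of basic helix-loop-helix factors, at 1.66 (7.18, 6.41 and 4.75) and BAMBI, a decoy receptor, at -0.90. Of 25 WNT genes 0 were higher and 4 lower. The lower ones were the co-receptors LRP6 (-0.67) and LRP5 (-0.63), BCL9 (-0.65) and LGR4 (-0.59), the last of which was under 1.5-fold with every other scaling. At a minimum signal of 7, 1 of 15 WNT genes was lower, and the list's median went from -0.07 to 0.08.

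The unfolded protein and integrated stress response had 4 of 36 genes higher (11.1%) and 0 lower, and 7 higher after median centring or cyclic loess. Of the 4, SLC7A1 (1.48) and SLC7A5 (0.99) are amino acid transporters. Heat shock and chaperonin genes had 2 of 22 higher (9.09%) and the NRF2 and AHR response 2 of 19 (10.5%), with 0 lower in each. Median signals on the control array were 9.665 for the stress response list, 12.77 for heat shock and 9.9 for NRF2 and AHR. Of all compared genes, 10.1% were higher at mean signals from 9 to 10 and 7.87% from 12 to 20. Hypoxia response genes had 1 of 18 higher, HIF1A itself, which read 12.52, 12.82 and 11.27. Interferon and RNA-sensing genes had 1 of 25 higher (IFIT5, 0.92) and 1 lower (TLR3). Of 9 genes of the RNA interference machinery, TNRC6B, a silencing cofactor of Argonaute, was at 0.87 (8.50, 8.13 and 7.26), and TSN, a subunit of the nuclease C3PO, at -1.02 (11.54, 11.06 and 12.08).

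In the adhesion, transport and chromatin lists some genes stood far from list medians near 0. DSG2 and EPCAM, an epithelial adhesion molecule, were the higher ones of 17 adherens junction and desmosome genes, and EPCAM read 14.74, 14.70 and 13.02. Among RAB GTPases 7 of 41 were higher (17.1%) and 1 lower (2.44%), led by RAB4A, of endosome recycling (8.51, 8.42 and 6.65). Their median was -0.02 and turned positive after median centring and cyclic loess. Of 134 other solute carriers 18 were higher (13.4%) and 2 lower (1.49%), with SLC9A2, a sodium-proton exchanger, at 1.78 (7.30, 7.33 and 5.55). Median signals on the control array were 8.42 for RAB GTPases and 7.19 for these carriers. Of all compared genes, 7.8% were higher at mean signals from 8 to 9 and 5.08% from 7 to 8. The Mediator list had CDK8, the kinase of its regulatory module, at 1.77 (9.57, 9.02 and 7.25). In the Polycomb and BAF list SS18 and SMARCB1 were lower and SMARCD1 (1.45) higher, all subunits of BAF.

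**Figure D4:**
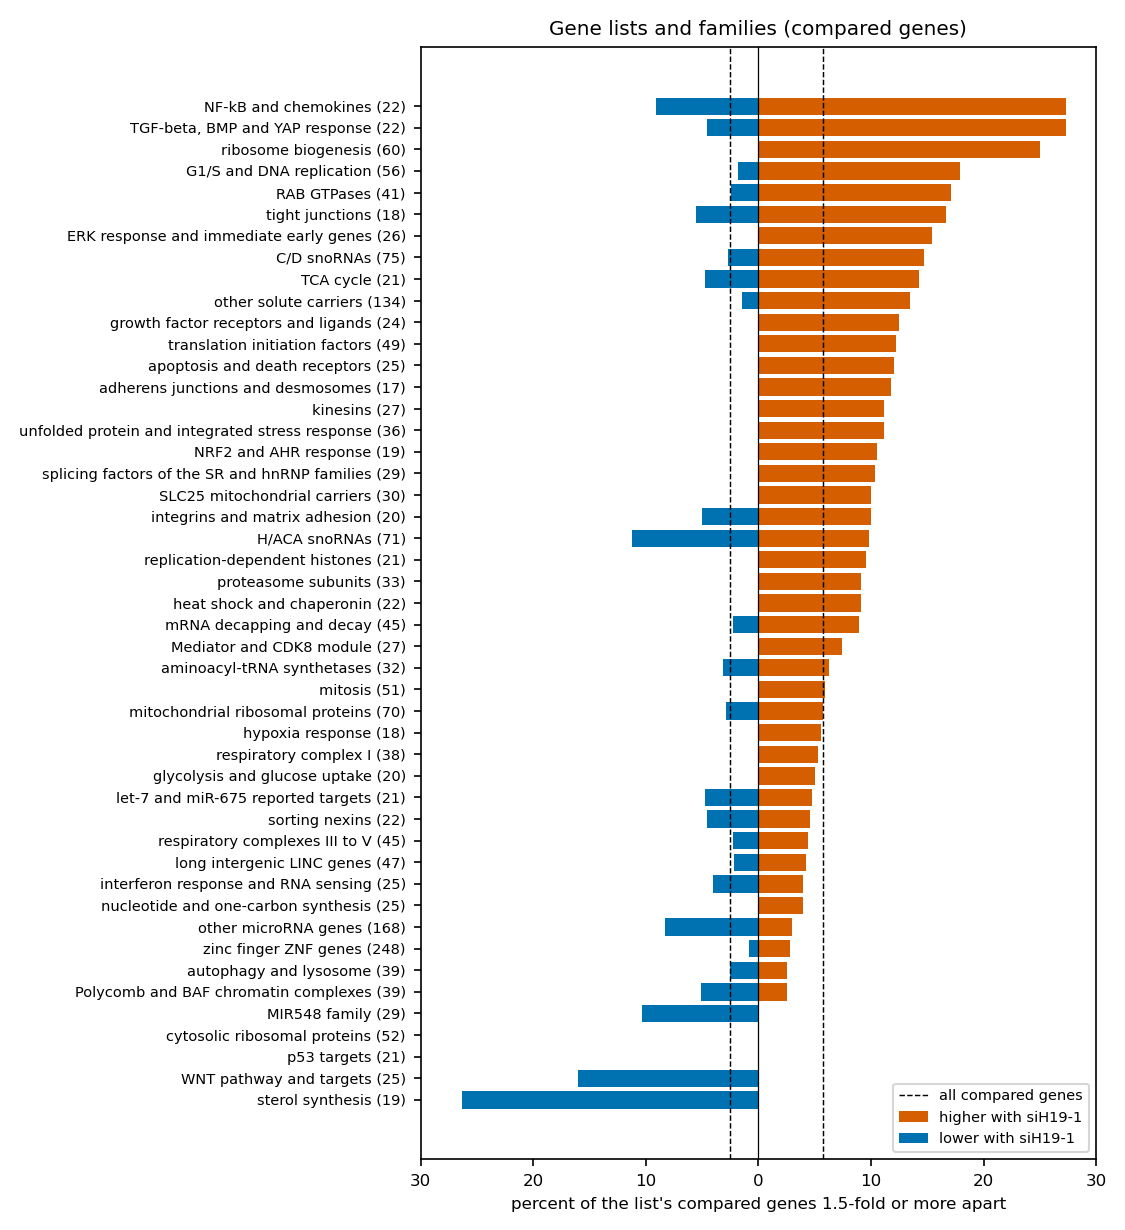
Percent of each list's compared genes that were higher (orange, right) or lower (blue, left) with siH19-1, with the number compared in brackets and dashed lines at the percentages over all compared genes (5.7 and 2.51). Ribosome biogenesis reaches 25 on the right and sterol synthesis 26.3 on the left, and p53 targets and cytosolic ribosomal proteins show no bar.

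Small nucleolar RNAs had a wider spread of differences than the other gene types counted. By RefSeq gene type, 129 small nucleolar RNAs had an SD of 0.56 across genes, against 0.361 for 8400 protein-coding genes. Of the 129, 16 were higher (12.4%) and 7 lower (5.43%), beside 5.7% and 2.51% over all compared genes. Spread also widens with signal: over all compared genes the SD was 0.438 at mean signals from 9 to 10 and 0.493 from 10 to 12. Small nucleolar RNAs guide chemical modification of ribosomal and spliceosomal RNA, C/D types methylation and H/ACA types pseudouridylation. SNORA14A, an H/ACA RNA, was the lowest of all compared genes at -3.17, reading 9.0 on the control array, 5.95 with siH19-1 and 9.12 with siH19-2. SNORD15B, a C/D RNA, read 16.55, 14.47 and 16.13, with values above 16 in 2 arrays. SNORD71 read 11.46, 9.87 and 11.62. In each of these siH19-1 was the lowest array, and in SNORD15B siH19-2 minus control was -0.42.

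By symbol, 11 of 75 genes of the C/D list were higher (14.7%) and 2 lower (2.67%). Of 71 genes of the H/ACA list, 7 were higher (9.86%) and 8 lower (11.3%). At mean signals from 9 to 10, 10.1% of all compared genes were higher and 2.86% lower. From 10 to 12 the shares were 11.7% and 2.87%. The median signal of the C/D list on the control array lay where these ranges meet. That of the H/ACA list was 7.86, and 5.08% of all compared genes were higher and 2.63% lower from 7 to 8. The H/ACA list takes in genes with SCARNA symbols, among them SCARNA9L (0.85) and SCARNA10 (-0.59). Their type was not checked, so some may not be H/ACA RNAs. Many genes of both lists sit in introns of other genes. Each gene was therefore set beside the gene that spans it where exactly 1 compared gene does. Of 30 such C/D genes 8 were apart, and in 4 of them the spanning gene was apart the same way. NOP58 (1.5) spans SNORD70 (1.53), SNORD11B (0.78) and SNORD11 (0.67), and TSR1 (0.84) spans SNORD91B (0.83). Of 53 such genes of the H/ACA list, SCARNA symbols included, 12 were apart, and the spanning gene was apart in 0. By sign alone, it lay above 0 for 6 of the 7 higher genes and below 0 for 3 of the 5 lower ones. For the C/D genes apart these counts were 6 of 6 and 2 of 2. SNORA31 was at -1.63 and TPT1, which spans it, at -0.15. KHDC4, at 0.00, spans both SCARNA4 (-1.65) and SNORA80E (0.67).

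Of 621 compared pseudogenes 17 were higher and 27 lower. A compared parent gene was found for 187 of the 621. Of these 187, 12 were apart, and in 11 the parent was apart the same way. SBDSP1 was at 1.73 and SBDS, a ribosome maturation factor, at 1.78, and EIF2S2P3 was at 1.46 beside EIF2S2. PDIA3P1 was at -0.83 and PDIA3 at -1.08. AK4P3 was the exception, at 0.71 with AK4 at 0.10. Across the 187 pairs Pearson's r was 0.754, with some parents, such as RNY4 and GUSB, entering in several pairs. Each pair shares its arrays and most of its sequence, so probes may read both transcripts and the pairs are not independent evidence of either. Among long noncoding RNAs, AFAP1-AS1 read 12.19, 12.25 and 9.55, a difference of 2.70.

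**Figure D5:**
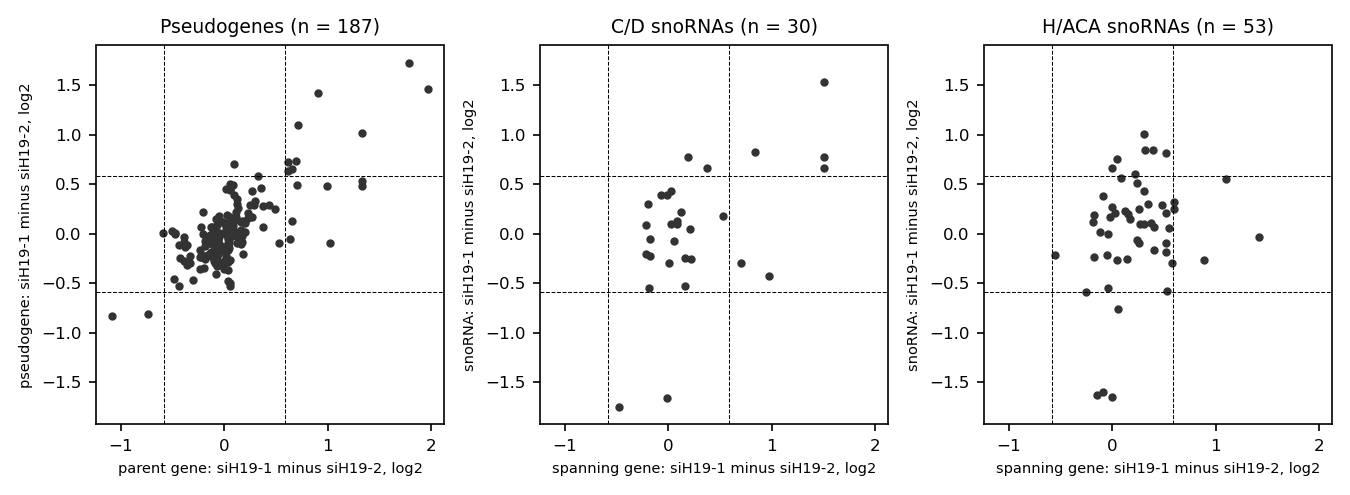
Log2 difference, siH19-1 minus siH19-2, of pseudogenes against their parent genes (187 pairs), with dashed lines at 1.5-fold. The other panels set genes of the C/D (30) and H/ACA (53, SCARNA symbols included) lists against the gene that spans them. Pseudogenes lie along the diagonal, whereas the genes of the H/ACA list past the lines have spanning genes within them.

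MicroRNA genes leaned the other way from protein-coding genes. Of 197 compared, 5 were higher (2.54%) and 17 lower (8.63%), with a median of -0.12. Pseudogenes (2.74% higher, 4.35% lower, median -0.12) and long noncoding RNAs (2.78%, 3.70% and -0.07) leaned the same way. Over all compared genes the shares were 1.03% higher and 1.60% lower at signals from 5 to 6, and 2.96% and 2.43% from 6 to 7. MicroRNA genes outside the MIR548 family had a median of 6.2 on the control array. A microRNA is cut from a hairpin, and bases 2 to 8 of the mature strand, the seed, choose its targets. The probe sets cover the gene and do not tell mature from precursor RNA. RefSeq (GRCh38.p14) held mature sequences for 20 of the 22 genes apart, 25 in all with 25 different seeds. Those of the 4 highest and the 3 lowest genes are shown, since they carry the ends of the range, with the seed in capitals:

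hsa-miR-4737: aUGCGAGGaugcugacagug

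hsa-miR-4653-5p: uCUCUGAGcaaggcuuaacacc

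hsa-miR-4653-3p: uGGAGUUAaggguugcuuggaga

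hsa-miR-4295: cAGUGCAAuguuuuccuu

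hsa-miR-221-3p: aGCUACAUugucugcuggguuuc

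hsa-miR-2054: cUGUAAUAuaaauuuaauuuauu

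hsa-miR-4434: aGGAGAAGuaaaguagaa

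hsa-miR-1284: uCUAUACAgacccuggcuuuuc

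MIR4737 (mature strand at chr17:60043077-60043096, minus strand) read 10.34 on the control array, 10.70 with siH19-1 and 9.45 with siH19-2, a difference of 1.25. HEATR6, which spans it, was at -0.05. MIR4653 (5p strand at chr7:101159482-101159503, plus) read 7.22, 7.26 and 6.10, with AP1S1, which spans it, at 0.03. On both the siH19-2 array was low. MIR4295 (chr10:112634180-112634197, plus) was at 0.88, and its seed AGUGCAA is carried by 6 mature names in the table. MIR221 (3p strand at chrX:45746180-45746202, minus) was at 0.61. MIR2054 (chr4:125507259-125507281, plus) read 9.15, 5.88 and 7.08, so both siRNA arrays lay below control and siH19-1 furthest. MIR4434 (chr2:64525520-64525537, plus) was at -0.93 and MIR1284 (chr3:71542039-71542060, minus) at -0.83. The MIR548 family, whose members are near copies and may share probes, had 0 of 29 higher and 3 lower (10.3%), and 23 of the 29 lay below 0. The lower ones were MIR548I4 (-0.64), MIR548X (-0.63) and MIR548T (-0.62). After quantile normalization MIR548T was the only one past 1.5-fold, and after median centring MIR548T was at -0.58, under it. With means over probe sets 1 of the family was lower. Without values above 16, 21 of the family remained, with 0 higher and 2 lower. The family's median signal on the control array was 13.62. Of all compared genes, 7.87% were higher and 3.7% lower at mean signals from 12 to 20.

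How far a second probe set of the same gene gave the same value could be seen in 62 genes. The median size of the gap between both differences was 0.115, and its SD was 0.42. Of the 6 genes apart, the second probe set had the same sign in 5 and was past 1.5-fold in 1, MTAP, a methylthioadenosine phosphorylase (0.72 and 0.62). The exception in sign was MIR548T, whose brightest probe set, at a mean of 14.37, gave -0.62 and the other, at 5.33, gave 0.06. LRRC59, a membrane protein of the endoplasmic reticulum, showed the widest gap. Its brightest probe set, at a mean of 11.84, gave 2.40, and the other, at 6.46, gave 0.03.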

How the data were processed

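RNA of 3 DLD1 cultures was measured on Affymetrix whole-transcript arrays, 1 array per siRNA. The deposited values are log2 signals made with Affymetrix Expression Console and RMA, per the submitters' processing notes. No version of either is given in the sources used here. Of 67528 probe sets, 23781 had 1 gene symbol in GEO's platform annotation (possibly outdated), 1543 several and 42204 none. Where a gene had more than 1 (479 genes) the brightest probe set was taken, and RefSeq (GRCh38.p14) listed 22167 of 22465 genes by symbol.

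Differences were computed with Python 3.11.15, numpy 2.4.6 and pandas 2.3.3 and drawn with matplotlib 3.10.9. The code was tested on simulated data. With 1 array per group no test was possible, and the number of arrays limits the precision. Alternatives were median centring, quantile normalization and cyclic loess (limma 3.58.1 in R 4.3.3), other signal minimums, probe set means, values above 16 left out, and 2-fold.

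Members and lists were chosen with earlier results of these data known. Named genes were the 20 highest and 20 lowest protein-coding and the 8 highest and 8 lowest other genes, up to 10 per direction by the place of the control, and the 4 members of each list furthest apart with its 2 brightest. Other names were chosen after their values were seen.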

Additional observations from a re-analysis of the deposited data

Results flagged for a closer look

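In 8 genes the siRNA arrays lay on opposite sides of control, each at least 1.5-fold from it. With 1 array per group this difference was not tested. In 5 of them siH19-1 was the array above control. MYD88 was 2.12 higher with siH19-1 than with siH19-2 on the log2 scale, UHMK1, a serine/threonine kinase, 2.10 (9.11 on the control array, 10.14 with siH19-1 and 8.04 with siH19-2), TMTC3, a mannosyltransferase of the endoplasmic reticulum, 1.95 (10.09, 11.44 and 9.49), CXCL5 1.76 and SNORD70 1.53. In 3 of them siH19-2 was the array above control. TXNIP was at -2.78, MSMO1 at -1.39 and FNBP1L, an actin regulator of membrane bending, at -1.30 (9.99, 9.29 and 10.59). All 8 values share the 1 control array.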

How the results depend on the processing

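The counts of 549 higher and 242 lower genes were 640 and 205 after median centring, 531 and 261 after quantile normalization, 579 and 222 after cyclic loess, 569 and 303 without a signal minimum, 473 and 165 at a minimum of 7, 545 and 235 with means over probe sets, and 545 and 236 without values above 16. At 2-fold they were 171 and 42. Of the 791 genes apart, 754, 742 and 771 were apart the same way under the 3 scalings, which moved the median of all genes by at most 0.04. LRRC59 was at 1.22 with means over its probe sets. List medians moved most with the signal minimum. With no minimum the median was 0.04 for the NF-kB and the TGF-beta lists and 0.00 for C/D small nucleolar RNAs, and with a minimum of 7 it was 0.295 and 0.38 for the NF-kB and TGF-beta lists, 0.375 for the ERK list, 0.325 for fatty acid synthesis and 0.08 for WNT genes. Quantile normalization lowered the G1/S median from 0.16 to 0.097. After median centring the TCA cycle had 5 higher genes and the unfolded protein list 7. No array could be left out, since each group has 1. No paired analysis was possible because each group has 1 array. Detection calls were not used, so a dim gene cannot be called absent.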
